A study of Oryctolagus cuniculus with 10 samples.

Results

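SDC1 and ECM1 are described here across the vocal folds of 10 rabbits. They are 2 of the 23669 genes in the deposited table of read counts, where they stand as ENSOCUG00000025956 and ENSOCUG00000011786. They were taken by these identifiers because both code for proteins tied to the matrix around cells. The rule uses no expression level, although the study had already called both genes lower on these rabbits with another test, Cuffdiff. It also reported both as lower in dehydrated vocal folds by RT-qPCR. CDH3 (ENSOCUG00000029153) was read beside them as a gene of the epithelium. The study had called CDH3 lower as well, by Cuffdiff on these rabbits and by RT-qPCR, so it is not an independent reference. All animals were male New Zealand White rabbits of 6 months, and all had drunk a sucrose solution beforehand to even out their hydration. The 6 rabbits of the dehydrated group were given the loop diuretic furosemide into the peritoneum at 5 mg/kg, with food and water taken away, and were killed at about 5% loss of body weight. Some of them may have needed a further dose, and the labels do not say which. The 4 rabbits of the control group were given saline and kept their food and water. RNA came from the full depth of the fold, mucosa together with thyroarytenoid muscle, so that fewer cells of a type and less RNA per cell cannot be told apart. Rabbits carry the numbers of their labels, which are 12, 14, 17 and 21 in the control group and 13, 15, 16, 18, 19 and 22 in the dehydrated group.

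Syndecan-1, the product of SDC1, is a proteoglycan of the cell surface. Its core protein crosses the membrane of epithelial cells and carries heparan sulfate chains outside, where they bind matrix proteins and growth factors. The outer part can be shed by proteases, and the protein takes part in adhesion and wound repair. Extracellular matrix protein 1, the product of ECM1, is a secreted glycoprotein that binds other matrix proteins such as perlecan and inhibits the protease MMP9. In skin it is made by keratinocytes and found at the border of epidermis and dermis. CDH3 codes for P-cadherin, which holds epithelial cells together at adherens junctions. In the vocal fold a stratified squamous epithelium lies over the lamina propria and the muscle.

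The libraries held 39039165 to 69670859 reads assigned to genes, and between 41.1 and 55.7% of the counted reads in a library were not assigned to any gene. Levels are given as CPM, the reads of a gene scaled to a common number of reads assigned to genes, after TMM scaling for differences in composition. The share of reads that fell on more than 1 gene split the libraries into 2 sets of 5. It was 0.487 to 0.590% in rabbits 14, 18, 19, 21 and 22 and 1.62 to 2.55% in rabbits 12, 13, 15, 16 and 17, and each set held 2 control and 3 dehydrated rabbits. The genes of the study's intermediate filament list and epidermis development list stood apart in 1 control library, that of rabbit 17.

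SDC1 was high in 3 of the 4 control rabbits and low in all other animals. Control rabbits 12, 14 and 21 had 194, 168 and 284 CPM, and control rabbit 17 had 61.3 CPM. The dehydrated rabbits had 56.4 CPM in rabbit 13, 92.4 in rabbit 15, 85.3 in rabbit 16, 78.6 in rabbit 18, 86.1 in rabbit 19 and 77.0 in rabbit 22. The groups overlapped through a single animal, since 5 of the 6 dehydrated rabbits were above control rabbit 17 and none was above any other control rabbit. A lower dehydrated group without any overlap was found for 0.539% of the genes tested, and SDC1, ECM1 and CDH3 were not among them. These levels rested on 2858 to 21372 reads, and the upper 95% limit from counting alone was at most 3.73% above the value. Counting error was thus small beside the distance between animals.

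The control mean of SDC1 was 177 ± 91.7 CPM (SD, n = 4) and the dehydrated mean was 79.3 ± 12.5 CPM (SD, n = 6), with all 6 dehydrated rabbits under the control mean. The log2 fold change of dehydrated over control was -1.16 (SE 0.32), which is 2.23-fold lower. By edgeR's quasi-likelihood test this did not pass the threshold, the adjusted p being 0.483 after Benjamini-Hochberg adjustment over 15040 genes. The background in that test was 0% of genes at an adjusted p of 0.05 or less. At an unadjusted p of 0.05 or less, a level SDC1 and ECM1 both reached, it was 5.11% of genes lower and 4.41% higher in the dehydrated group, or 9.52% in all. SDC1 stood at place 109 of all genes in order of p. In an exact permutation test, two-sided, over the 210 splits of the rabbits into 4 and 6, the mean log2 CPM differed by -0.98 between the groups (95% interval -1.81 to 0.33, p = 0.0571, where the smallest possible p is 0.00952). Without control rabbit 17, the lowest control value was 168 CPM against a highest dehydrated value of 92.4 CPM, a gap in this direction that 6.32% of all genes then showed. The log2 fold change was then -1.45 with an adjusted p = 0.0225 in edgeR, in a test where 3.30% of all genes passed the adjusted threshold. The call on SDC1 therefore turned on 1 control library. Without control rabbit 21, the highest, the log2 fold change was -0.83.

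ECM1 had the same order at the top and another at the bottom. Among the control rabbits it reached 265 CPM in rabbit 12, 149 in rabbit 14, 131 in rabbit 17 and 408 in rabbit 21. Among the dehydrated rabbits it reached 87.9 CPM in rabbit 13, 144 in rabbit 15, 157 in rabbit 16, 46.8 in rabbit 18, 126 in rabbit 19 and 110 in rabbit 22. Rabbits 12 and 21 stood above every dehydrated animal, while rabbits 14 and 17 lay within the upper range of the dehydrated group. For rabbit 14 this depended on the TMM scaling. Scaled by total counts alone, it had 155 CPM, above the highest dehydrated value of 131 CPM in rabbit 19. Rabbit 17, at 107 CPM, still lay within the dehydrated range. The lowest value, in rabbit 18, came from 2021 reads (exact Poisson 95% interval 1934 to 2111), so it was not a gene near the limit of detection, which at 3 reads was 0.0431 to 0.0768 CPM. Such intervals and limits cover counting error only.

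ECM1 averaged 238 ± 128 CPM (SD, n = 4) in control against 112 ± 40.2 CPM (SD, n = 6) in dehydrated rabbits, again with all 6 dehydrated rabbits under the control mean. The log2 fold change was -1.09 (SE 0.37). By edgeR's quasi-likelihood test its adjusted p was 0.483, and it stood at place 444 of 15040 genes in order of p. The exact permutation test gave a difference of -1.04 in mean log2 CPM (95% interval -2.19 to 0.01, p = 0.0571). Leaving out control rabbit 17 moved the log2 fold change to -1.29, with an adjusted p = 0.0806 in edgeR. In TMM-scaled CPM 1 dehydrated rabbit, number 16, was still above control rabbit 14, though not with total-count scaling. Leaving out control rabbit 21 moved it to -0.70. Unlike SDC1, ECM1 passed the adjusted threshold under none of the alternatives run, rabbits left out included.

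**Figure D1:**
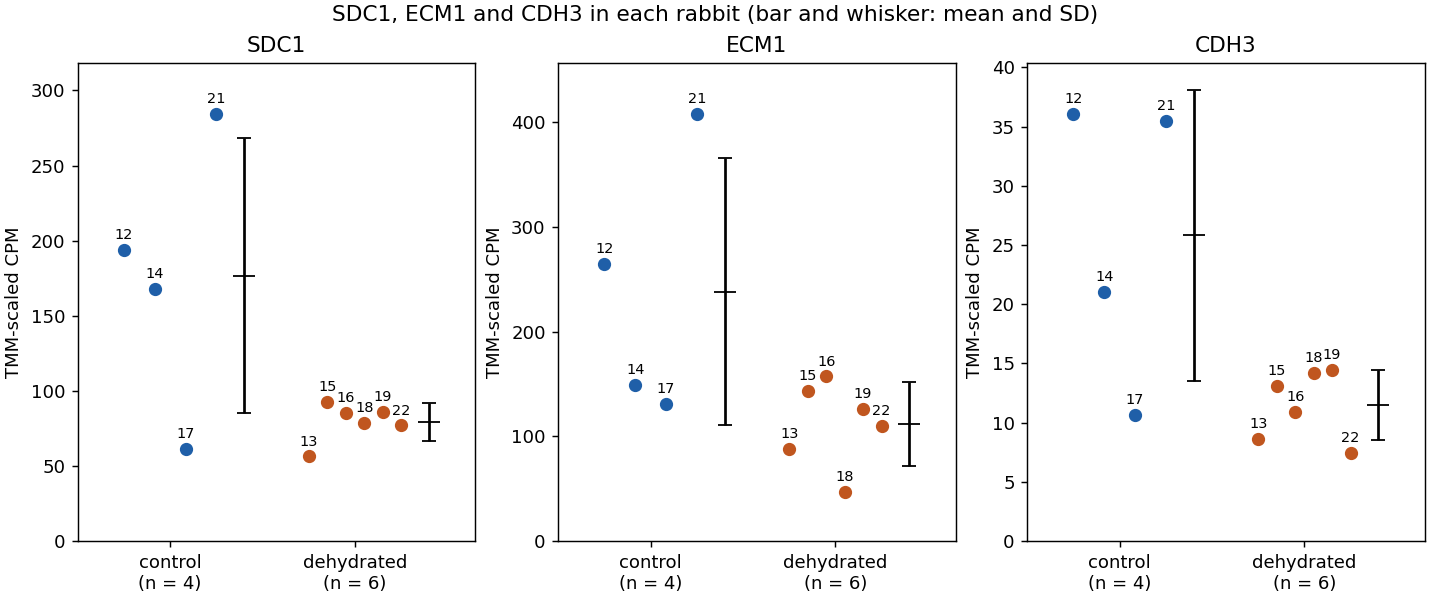
TMM-scaled CPM of SDC1, ECM1 and CDH3 in each rabbit (points with rabbit numbers, 4 control and 6 dehydrated), with the mean and SD of each group beside them, on linear axes that start at 0. Control rabbit 17 lies among the dehydrated rabbits in SDC1 and CDH3, and dehydrated rabbit 18 is the lowest in ECM1 at 46.8 CPM but not in the other genes.

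CDH3 was measured at a lower read count, 496 to 2670 reads, and showed the pattern of SDC1. The control rabbits had 36.0 CPM in rabbit 12, 21.1 in rabbit 14, 10.6 in rabbit 17 and 35.5 in rabbit 21. The dehydrated rabbits lay between 7.43 CPM in rabbit 22 and 14.4 CPM in rabbit 19, and 4 of them were above control rabbit 17. Its log2 fold change was -1.17 (SE 0.32, edgeR adjusted p = 0.483). The exact permutation test gave a difference of -1.06 in mean log2 CPM (95% interval -2.03 to -0.07, p = 0.0476). The log2 fold changes of the 3 genes ran from -1.17 to -1.09. Since the study had called all 3 lower on these rabbits, this likeness is no independent evidence.

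**Figure D2:**
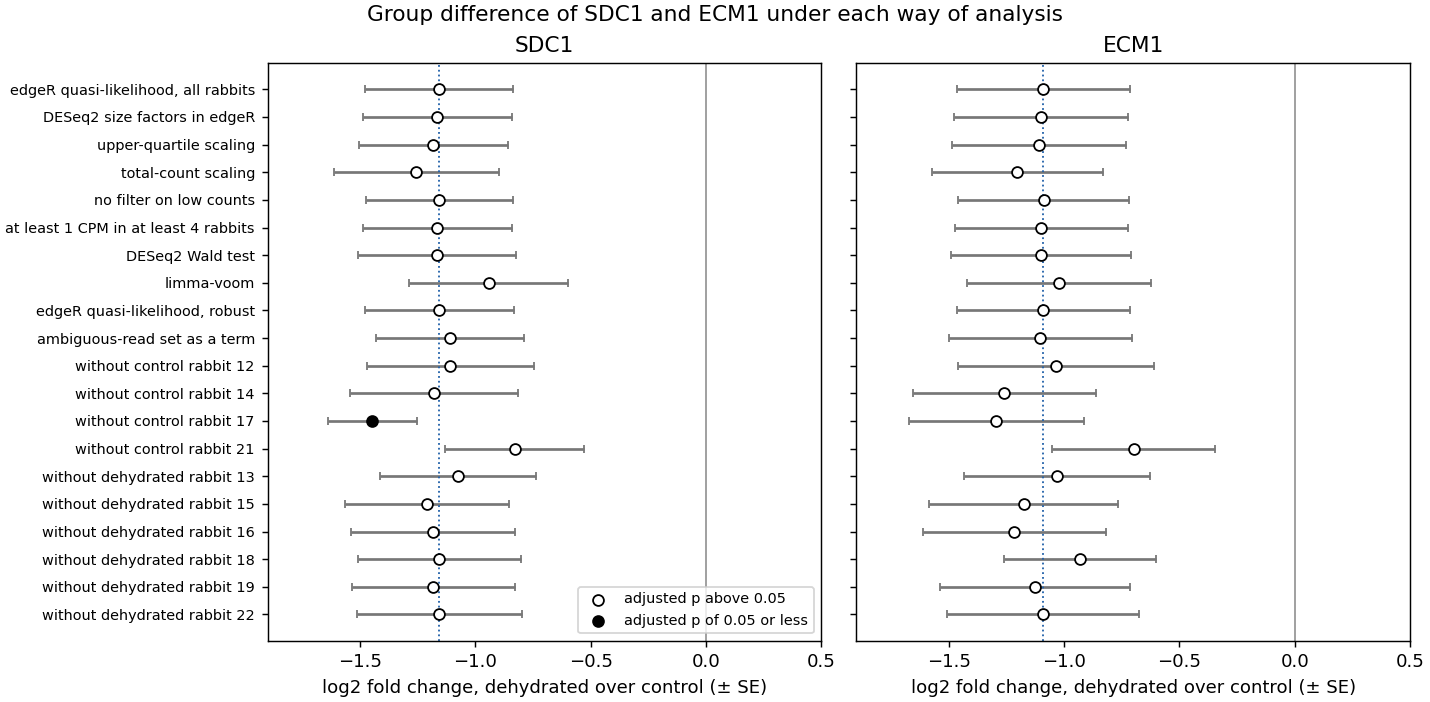
Log2 fold change of SDC1 and ECM1, dehydrated over control, with its standard error, under edgeR's quasi-likelihood test on all rabbits (top, dotted line), under 9 other settings and with each of the 10 rabbits left out. All values are below 0, and 1 point, SDC1 without control rabbit 17, has an adjusted p of 0.05 or less.

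Ranked by read count within a library, with no correction for gene length, both genes were among the more abundant transcripts of the tissue. SDC1 ranked 364 to 2514 in the control rabbits, with a median of 634, and 1582 to 2574 in the dehydrated rabbits, with a median of 1790. ECM1 ranked 231 to 1052 in the control rabbits, with a median of 610, and 855 to 3287 in the dehydrated rabbits, with a median of 1206. Between 15699 and 16993 genes had a read in a library, so the best rank of SDC1 was within the top 2.26% and its worst within the top 16.0%. For ECM1 these were the top 1.43%, in control rabbit 21, and the top 20.3%, in dehydrated rabbit 18. Ordered by CPM over all animals, rabbits 21 and 12 came first and second for both genes. Below them the orders parted after TMM scaling, since dehydrated rabbit 16 came next for ECM1 and control rabbit 14 came next for SDC1. With total-count scaling alone, control rabbit 14 stood above dehydrated rabbit 16 for ECM1 too, at 155 against 130 CPM.

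The spread among rabbits differed between the genes. In the control group the SD of log2 CPM was 0.94 for SDC1 and 0.76 for ECM1, above that of 91.0 and 84.8% of the 13175 tested genes of at least 1 CPM, whose median was 0.36. In the dehydrated group it was 0.25 for SDC1, which 37.7% of genes lay under, and 0.64 for ECM1, which 81.4% lay under. The median there was 0.32. SDC1 was thus more even among dehydrated rabbits, with a highest value 1.64 times the lowest, than among control rabbits, with a ratio of 4.63. ECM1 was uneven in both, with ratios of 3.10 in the control and 3.36 in the dehydrated group. The SD of the control group was 3.75 times that of the dehydrated group for SDC1 and 1.19 times for ECM1, against 1.08 times for the median gene. The difference in spread did not pass an exact permutation test. That test shuffled the values with the group levels left in. Its p therefore mixes level with spread and cannot decide on spread alone. The mean absolute deviation from the group median, on the log2 scale, differed by -0.44 for SDC1 (exact permutation p = 0.210, adjusted p = 0.419 over both genes) and by -0.17 for ECM1 (exact permutation p = 0.610). The difference for SDC1 depended on which control rabbits were used. Without control rabbit 17 the difference was -0.088 (exact permutation p = 0.690), and without control rabbit 12, 14 or 21 it was -0.57, -0.57 and -0.39 (exact permutation p = 0.0476 in each case). For ECM1 it was -0.04 without control rabbit 17 and 0.11 without control rabbit 21. The coefficient of variation on the CPM scale was 51.9% in the control and 15.8% in the dehydrated group for SDC1, and 53.5% and 35.9% for ECM1.

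A ratio of reads within a library needs no scaling factor, and it shows directly whether the genes kept step. Per read of ECM1, the control libraries held 0.732 reads of SDC1 in rabbit 12, 1.13 in rabbit 14, 0.467 in rabbit 17 and 0.697 in rabbit 21. The dehydrated libraries held 0.641 in rabbit 13, 0.644 in rabbit 15, 0.542 in rabbit 16, 1.68 in rabbit 18, 0.684 in rabbit 19 and 0.701 in rabbit 22. Rabbit 18 was the only dehydrated animal with more reads of SDC1 than of ECM1. There SDC1 made up 62.7% of the reads of both genes (exact 95% binomial interval 61.4 to 64.0%), against 41.2% (40.4 to 42.1%) in rabbit 22, the next highest of its group. The distance between these animals was far wider than counting error.

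Between the groups the log2 ratio of SDC1 to ECM1 differed by 0.06 (95% interval -0.68 to 0.91, exact permutation p = 0.876, adjusted p = 0.914 over 3 ratios). Its mean was -0.47 ± 0.52 (SD, n = 4) in control and -0.41 ± 0.58 (SD, n = 6) in dehydrated rabbits. The log2 ratio of SDC1 to CDH3 differed by 0.08 (interval -0.41 to 0.56, exact permutation p = 0.714), and that of ECM1 to CDH3 by 0.02 (interval -1.10 to 0.97, exact permutation p = 0.914). No difference between the group effects of the 3 genes was detected, and the widths of the intervals, widest for ECM1 to CDH3, bound what could have been seen with these rabbits. The sign of each ratio turned when single rabbits were left out, for SDC1 to ECM1 without rabbit 17, at -0.15, or rabbit 18, at -0.17.

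**Figure D3:**
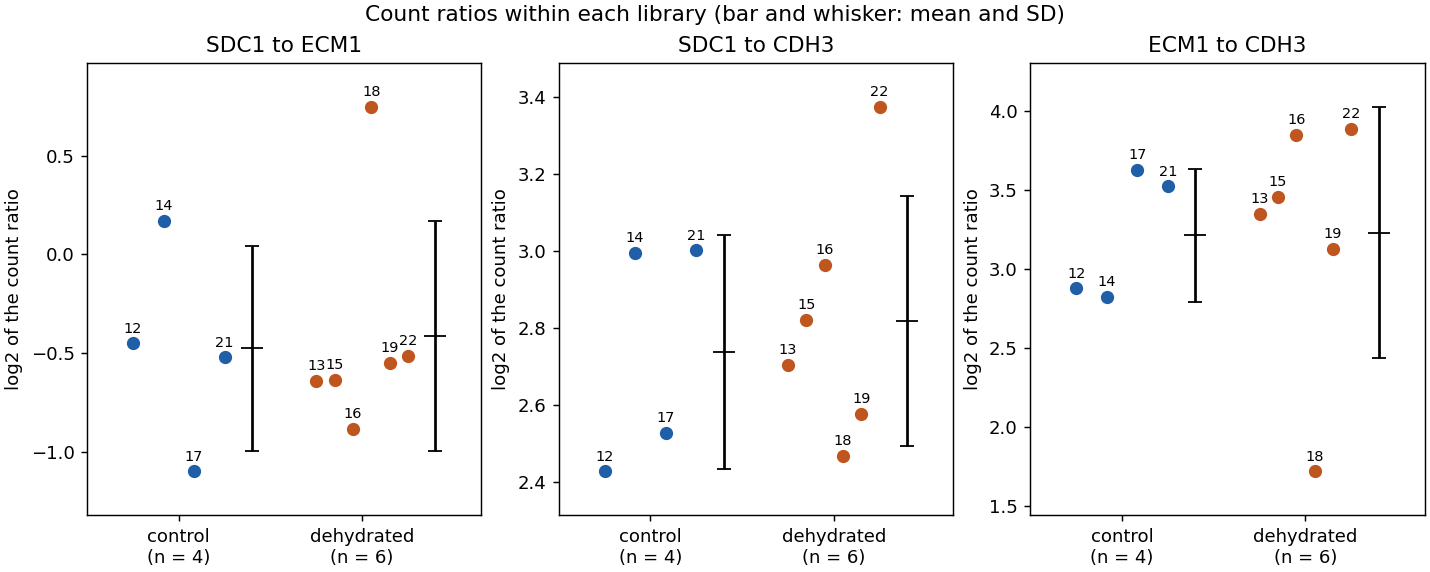
Log2 of the read ratio of SDC1 to ECM1, SDC1 to CDH3 and ECM1 to CDH3 in each rabbit, with the mean and SD of each group (4 control, 6 dehydrated). Dehydrated rabbit 18 stands above its group in SDC1 to ECM1 and below it in ECM1 to CDH3, and the groups overlap in all panels.

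Pooled over the 10 rabbits of both groups, SDC1 and ECM1 went together. Pearson's r of log2 CPM was 0.787 (permutation p = 0.00668, adjusted p = 0.0134) and Spearman's rho was 0.794 (permutation p = 0.00906, adjusted p = 0.0136). The adjustment covered 6 tests, r and rho for the 3 pairs of SDC1, ECM1 and CDH3. The study had called all 3 genes lower on these same rabbits, so pooled values hold a group difference they were known to share. The permutations over 10 rabbits took no account of group, so their p cannot tell that difference from a relation within groups. Control rabbits 12, 14 and 21 lay apart from the other animals in SDC1, and r was lower with them left out together. Without rabbit 14 alone it was 0.819. Without rabbits 12 and 21, the farthest from the median of SDC1, r was 0.364 (n = 8, exact permutation p = 0.321) and rho was 0.595. Among the 7 animals other than rabbits 12, 14 and 21, a set chosen after the values were seen, r was 0.240 (exact permutation p = 0.594). There rho was 0.500. Leaving out the animals highest in SDC1 also narrows its range, so these values cannot show whether the relation rested on them.

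Within the dehydrated group r was 0.410 (n = 6, exact permutation p = 0.378) and rho was 0.657 (exact permutation p = 0.175), a number of animals at which a moderate relation may not be seen. With the group means taken out of all 10 rabbits, r was 0.633 (exact permutation within groups p = 0.0462, adjusted p = 0.0693). The pooled value was 0.904 without rabbit 18, 0.825 without control rabbit 17 and 0.623 without rabbit 21 (exact permutation p = 0.0567). The sets by share of ambiguous reads were too small, at 5 libraries each, for a correlation of their own. With the means of both sets taken out, r was 0.865.

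SDC1 followed CDH3 more closely in value than it followed ECM1, although the difference of these correlations was not tested. Over the 10 rabbits r of SDC1 and CDH3 was 0.925 (permutation p = 0.000800, adjusted p = 0.00414) and rho was 0.891. It remained at 0.796 without rabbits 12 and 21 (n = 8, exact permutation p = 0.0269) and was 0.863 with the group means taken out (exact permutation within groups p = 0.0258, adjusted p = 0.0516). Within the dehydrated group it was 0.584 (n = 6, exact permutation p = 0.289). There rho was 0.657 (exact permutation p = 0.175), the same as for SDC1 and ECM1. In the 7 animals other than rabbits 12, 14 and 21, r of SDC1 and CDH3 was 0.537 (exact permutation p = 0.215). Without rabbit 18 the pooled r values lay close, at 0.935 with CDH3 and 0.904 with ECM1.

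For ECM1 and CDH3, r was 0.691 over the 10 rabbits (permutation p = 0.0254, adjusted p = 0.0305) and rho was 0.624 (permutation p = 0.0576). Within the dehydrated group r was -0.13 (n = 6, exact permutation p = 0.906). The pooled call was lost without control rabbit 12, at r = 0.620 (exact permutation p = 0.0947), without control rabbit 21, at 0.519 (exact permutation p = 0.123), and with the group means taken out, at 0.446 (exact permutation within groups p = 0.242). In the 7 animals other than rabbits 12, 14 and 21 it was -0.14 (exact permutation p = 0.844). Without rabbits 18 and 21, the farthest from the median of ECM1, it was 0.866 (n = 8, exact permutation p = 0.0123). In rabbit 18 CDH3, at 14.2 CPM, was next to the highest of its group while ECM1 was the lowest of all 10 animals.

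**Figure D4:**
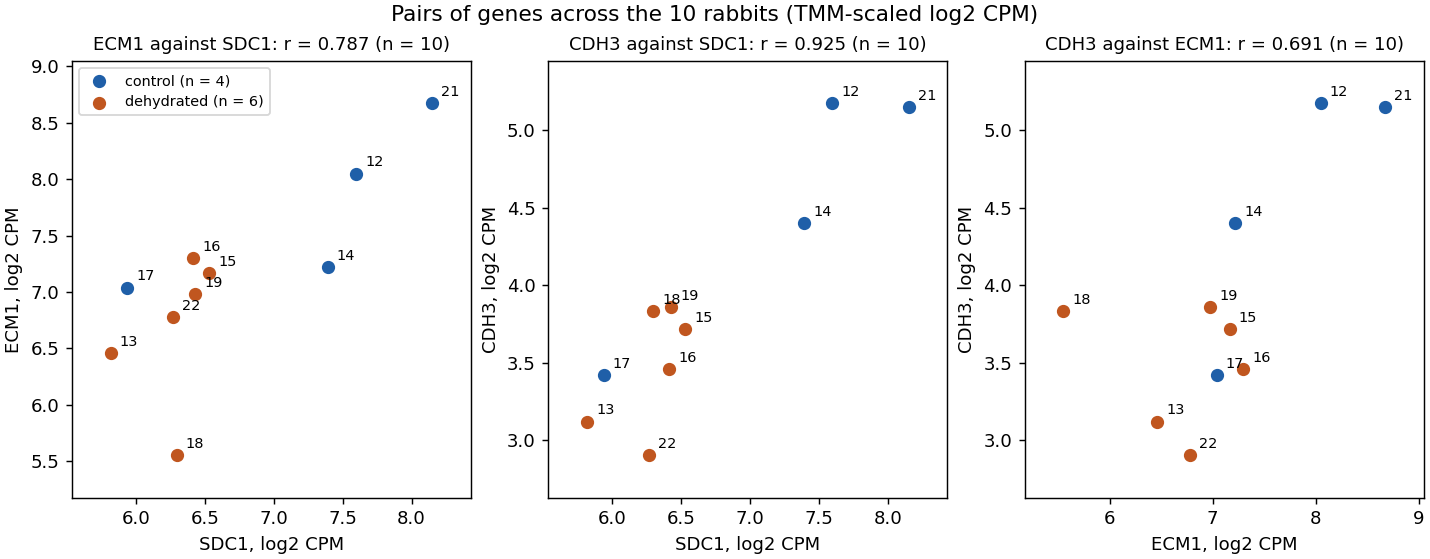
Log2 CPM of ECM1 against SDC1, CDH3 against SDC1 and CDH3 against ECM1 in the 10 rabbits (points with rabbit numbers), with Pearson's r of 0.787, 0.925 and 0.691. Control rabbits 12 and 21 form the upper right of each panel, and dehydrated rabbit 18 lies below the others in ECM1.

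Many other genes shared these patterns, which puts the correlations in scale. Of the 13174 other tested genes of at least 1 CPM, 880 (6.68%) were at least as alike to SDC1 as ECM1 was, and 146 (1.11%) at least as alike as CDH3. From the side of ECM1, 386 genes (2.93%) were at least as alike as SDC1 and 896 (6.80%) at least as alike as CDH3. A value of r of 0.9 or more was found for 248 genes with SDC1 and 55 with ECM1, while the median gene had r of -0.04 and -0.03. All of these values come from the same 10 libraries and share their scaling, and they are descriptions without a test. These places depended on single rabbits. Among the genes most like SDC1, ECM1 stood at place 344 without rabbit 18, 661 without control rabbit 17, 1598 without rabbit 13 and 1649 with the group means taken out. Among those most like ECM1, SDC1 stood at place 107 without rabbit 18, 600 without rabbit 12, 627 without rabbit 13, 971 without rabbit 21 and 950 with the group means taken out. CDH3 moved from place 76 without rabbit 22 to 426 without rabbit 13 in likeness to SDC1, and stood at 318 with the group means taken out. In likeness to ECM1 it stood at place 151 without rabbit 18, 1353 without rabbit 13, 1607 without rabbit 21 and 2243 with the group means taken out.

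The gene most like SDC1 was ENSOCUG00000002371, at r = 0.991 over 10 rabbits. Its mean was 44.3 ± 28.3 CPM (SD, n = 4) in control and 14.5 ± 2.23 CPM (SD, n = 6) in dehydrated rabbits, and its log2 fold change was -1.61 (SE 0.38, edgeR adjusted p = 0.483). The gene most like ECM1 was ENSOCUG00000007958, at r = 0.968. Its mean was 285 ± 215 CPM (SD, n = 4) in control and 101 ± 62.4 CPM (SD, n = 6) in dehydrated rabbits, and its log2 fold change was -1.50 (SE 0.56, edgeR adjusted p = 0.484). No name was found for either identifier in the tables used here.

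**Figure D5:**
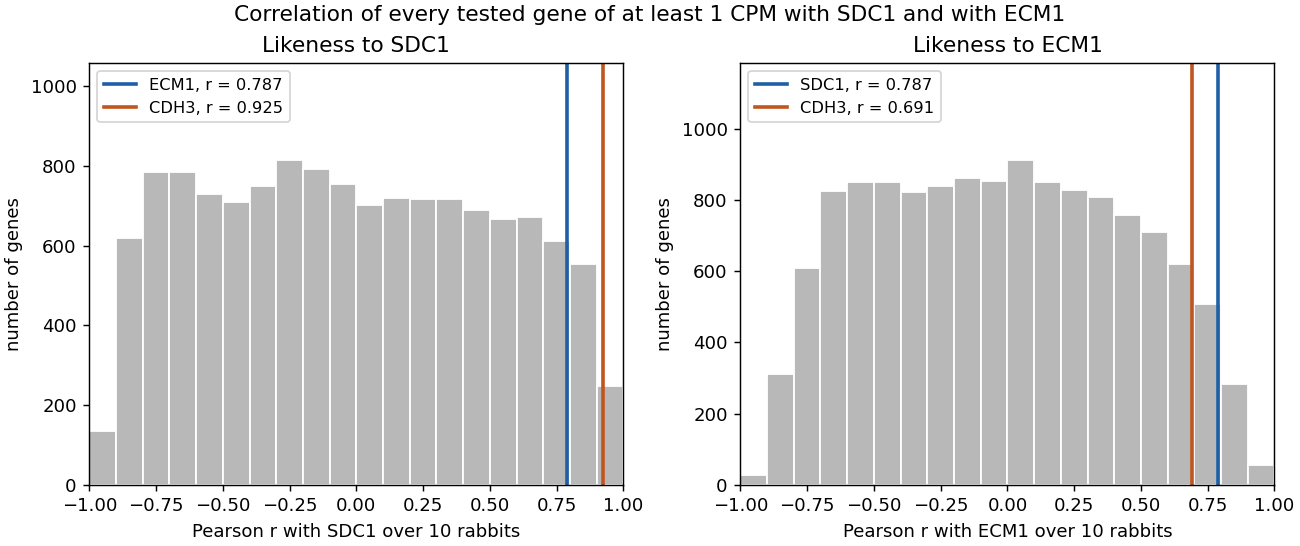
Number of tested genes of at least 1 CPM (vertical axis) by their Pearson's r of log2 CPM with SDC1 and with ECM1 over 10 rabbits (horizontal axis, steps of 0.1), with lines at the other gene and at CDH3. CDH3 lies near the right end for SDC1, at 0.925, whereas for ECM1 both lines fall further in, at 0.787 and 0.691.

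The functional lists that hold SDC1 or ECM1 were those of the study, which drew them from genes it had picked on these same rabbits. Their direction and their r with SDC1 and ECM1 are therefore no independent evidence. The counts below describe the company in which the genes stood. In all of them 0 genes passed the adjusted threshold in edgeR's quasi-likelihood test, and the median log2 fold change of all 15040 genes was 0.04. Of the 134 tested genes of the whole of the study's table, 93 were lower and 10 higher at an unadjusted p of 0.05 or less. Over all genes tested, 5.11% were lower and 4.41% higher at that p. The median log2 fold change of the study's table was -1.18. Over the other genes of that table the median r was 0.86 with SDC1 and 0.66 with ECM1.

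SDC1 was listed with junction and adhesion genes. All 4 genes under cell adhesion molecules were lower at an unadjusted p of 0.05 or less in edgeR's test, with log2 fold changes from -1.17 to -0.94. They were SDC1, CDH3, NECTIN1 and CLDN7. NECTIN1 codes for an adhesion molecule of adherens junctions, and its log2 fold change was -1.16 (SE 0.35), with r = 0.977 to SDC1 and 0.728 to ECM1. CLDN7 codes for a claudin of tight junctions, and its log2 fold change was -0.94 (SE 0.34), with r = 0.891 to SDC1 and 0.587 to ECM1. Under adherens junction 9 of 9 genes were lower at that p, and under anchoring junction 10 of 10. Under cell junction 16 of 17 were, and the remaining gene had a log2 fold change of 1.21 that did not reach that p. Under wound healing 5 of 6 were, and the remaining gene had a log2 fold change of 1.70 that did not reach that p. The median r of the other listed genes with SDC1 was 0.94 for adherens junction and 0.87 for wound healing. With ECM1 it was 0.74 and 0.86. Over the study's whole table it was 0.86 with SDC1 and 0.66 with ECM1.

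ECM1 was listed with genes of secreted proteins, vessels and immune cells. Under angiogenesis 4 of 7 genes were lower and 1 higher at an unadjusted p of 0.05 or less in edgeR's test. Under regulation of peptidase activity 4 of 6 were lower and 1 higher, and under regulation of leukocyte migration 3 of 4 were lower and 0 higher. Under regulation of epithelial cell proliferation 6 of 8 were lower and 2 higher, and under inflammatory response 10 of 13 were lower and 0 higher. Under extracellular space 20 of 30 tested genes were lower and 2 higher. The median r of the other genes with ECM1 was 0.59 for angiogenesis, 0.71 for regulation of peptidase activity and 0.75 for regulation of leukocyte migration. It was 0.71 for regulation of epithelial cell proliferation, 0.71 for inflammatory response and 0.58 for extracellular space. The list of the extracellular region held both genes. There 55 of 68 tested genes were lower and 2 higher at that p. The median r was 0.88 with SDC1 and 0.72 with ECM1, against 0.86 and 0.66 over the study's whole table.

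Genes of the study's epithelial lists, which it had picked on these same rabbits, varied with SDC1 and ECM1. The 8 genes listed under intermediate filament and the 14 under epidermis development were all lower at an unadjusted p of 0.05 or less, with median log2 fold changes of -1.51 and -1.34. The median r of the epidermis development genes was 0.92 with SDC1, in a range of 0.74 to 0.98, and 0.74 with ECM1, in a range of 0.45 to 0.88. Over the study's whole table these medians were 0.86 and 0.66. Relative to the control mean, the genes of the epidermis development list averaged a log2 CPM of 0.33 in rabbit 12, 0.19 in rabbit 14, -1.53 in rabbit 17 and 1.01 in rabbit 21, and of -1.76 to -0.90 in dehydrated animals. On the same scale SDC1 was 0.33, 0.12 and 0.88 in those control rabbits, -1.33 in rabbit 17 and -1.45 to -0.74 in the dehydrated rabbits. ECM1 was 0.30, -0.52 and 0.93, with -0.71 in rabbit 17 and -2.19 to -0.45 in the dehydrated rabbits. In rabbit 18 the epidermis development genes stood at -1.38, within their group, while ECM1 stood at -2.19, under all other animals. The part of epithelial content in the group difference of either gene was not tested.

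The group difference was also read within the sets by share of ambiguous reads. In the set with the low share, the log2 ratio of mean CPM, dehydrated over control, was -1.49 for SDC1 and -1.56 for ECM1. In the set with the high share, which held control rabbit 17, it was -0.71 for SDC1 and -0.61 for ECM1, with overlap in both. With 2 control and 3 dehydrated libraries in a set, the smallest p of the two-sided exact permutation test is 0.2. With the set as a term in edgeR's quasi-likelihood test, the log2 fold changes were -1.11 and -1.10.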

How the data were processed

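The authors prepared libraries of polyadenylated RNA, trimmed the reads by base quality, mapped them with STAR 2.5.4b to OryCun2.0 and compared the groups with Cuffdiff, which was not rerun. They deposited counts for each gene without normalization, with a column for every rabbit, and the submitters' processing notes also name HTSeq 0.7.0. The table holds 23669 genes and 5 lines of unassigned reads, which were left out of library sizes and tests, and 0 columns were unused. Totals of 39039165 to 69670859 counts put 3 counts at 0.0431 to 0.0768 CPM.

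Columns were matched to samples by rabbit number. Counts were tested as deposited with edgeR 4.0.16 (quasi-likelihood test, TMM scaling, filterByExpr, 15040 genes, Benjamini-Hochberg adjustment, threshold 0.05) in R 4.3.3. DESeq2 1.42.0 and voom of limma 3.58.1 were alternatives, with other scalings and filters, a term for ambiguous reads, and the omission of single rabbits. Log2 CPM used a prior count of 2. Standard errors were log2 fold changes divided by the square root of F. Exact permutation tests ran over 210 splits, two-sided as double the smaller tail. Correlations over 10 rabbits used 100000 permutations, and smaller sets all permutations. Python 3.11.15 was run with scipy 1.17.1, numpy 2.4.6, matplotlib 3.10.9 and pandas 2.3.3. The edgeR script was tested on simulated data, with no value from it used here.

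The table pairs no identifier with a name. SDC1, ECM1, CDH3, NECTIN1 and CLDN7 each matched 1 identifier through the functional terms the study lists for them, and 0 identifiers matched the reference gene table, of another assembly. Hence no coordinates or sequences are given, and marker lists by symbol (muscle, fibroblast, endothelial, immune, cartilage, gland) were not run. Besides these genes, the text names those of the study that share a list with SDC1 or ECM1, and the gene most alike to each. The planned names NR4A3 and S100A8 were left out. The members, lists and tests were chosen with earlier results of these data known.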

Additional observations from a re-analysis of the deposited data

Results flagged for a closer look

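Each group was searched for a rabbit standing apart, by the gap of its highest or lowest value to the nearest other rabbit as a share of the group's range. This was done for log2 CPM of SDC1, ECM1 and CDH3 and for their 3 log2 ratios, 12 searches in all, of which chance is expected to mark about 1 in 20. In SDC1, dehydrated rabbit 13, with 56.4 CPM, lay below the rest of its group, with a gap of 0.631 of the range against a limit of 0.625 for 6 animals. In the ratio of SDC1 to ECM1, dehydrated rabbit 18, with 1.68 reads of SDC1 per read of ECM1, lay above its group, with a gap of 0.772 of the range. In the ratio of ECM1 to CDH3 the same rabbit lay below its group, with a gap of 0.649. Both ratios of rabbit 18 hold its ECM1 level of 46.8 CPM and are not independent of each other. Control rabbit 17, on which the call on SDC1 turned, did not exceed the limit of 0.829 for 4 animals in any of these measures.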

How the results depend on the processing

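The log2 fold changes of SDC1 and ECM1 kept their direction under all alternatives run. Other scalings, filters and tests gave -1.25 to -0.94 for SDC1, with adjusted p between 0.0837 (DESeq2) and 0.638, and -1.20 to -1.02 for ECM1, with adjusted p between 0.177 (DESeq2) and 0.638 (edgeR). DESeq2 called 40 genes where edgeR called 0, and neither gene was among them. Splits counted by absolute size, an alternative chosen after seeing the data, left the differences of mean log2 CPM at -0.98 for SDC1 and -1.04 for ECM1 but moved the exact permutation p to 0.0333 and 0.0429. When single rabbits were omitted, the log2 fold change ran from -1.45 to -0.83 for SDC1 and from -1.29 to -0.70 for ECM1, and the difference of mean log2 CPM from -1.42 to -0.68 and from -1.27 to -0.73. ECM1 passed the exact permutation test without control rabbit 17 (p = 0.0476) or dehydrated rabbit 16 (p = 0.0317), and SDC1 without control rabbit 17 (p = 0.0238). The number of genes past the adjusted threshold ran from 0 to 502, the latter without control rabbit 17, and that at an unadjusted p of 0.05 or less from 655, without control rabbit 21, to 3574, without control rabbit 17. Without control rabbit 12 it was 916. The cause of these shifts was not tested.

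The ratios had no call to lose, and with single rabbits omitted they ran from -0.17 to 0.28 (SDC1 to ECM1), -0.031 to 0.17 (SDC1 to CDH3) and -0.11 to 0.32 (ECM1 to CDH3). In the same way the difference in spread ran from -0.57 to -0.088 for SDC1 and from -0.37 to 0.11 for ECM1. With total-count scaling it was -0.61 (exact permutation p = 0.0857) and -0.45 (exact permutation p = 0.343), where p again mixes level with spread. With single rabbits omitted the correlations ran from 0.62 to 0.90 (SDC1 and ECM1), 0.89 to 0.96 (SDC1 and CDH3) and 0.52 to 0.89 (ECM1 and CDH3). With the group means taken out they were 0.63, 0.86 and 0.45, and on linear CPM 0.92, 0.93 and 0.85. In the 7 rabbits other than 12, 14 and 21, chosen after seeing the data, they were 0.24, 0.54 and -0.14. No paired analysis was run, because the labels do not say which control and dehydrated rabbits were handled together. Counting error was small for SDC1 and ECM1 at these depths.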
